A study of Homo sapiens with 12 samples.

Results

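The 10 immediate early genes FOS, FOSB, FOSL1, JUN, JUNB, EGR1, EGR2, EGR3, IER2 and IER3 were taken by symbol from a table of 41878 gene rows. Each symbol matched 1 row, and all 10 were among the 18030 genes that passed the filter on low counts and were tested. They were followed through 12 RNA-seq libraries of polyadenylated RNA from HEK293T, a human embryonic kidney line that carries the SV40 large T antigen and takes up plasmids readily. All cells were transfected with 1 µg of plasmid using Effectene. The plasmid was a vector control or one for TRPML3, an endolysosomal cation channel whose gene is MCOLN3. Cells then stayed in 10% serum (vector fed and TRPML3 fed) or went without serum, at 0%, for 4 h (vector starved and TRPML3 starved), with 3 biological replicates in each of the 4 groups. Neither the promoter of the TRPML3 plasmid nor the share of cells that took it up is given in the sources used here. The libraries are whole cultures, so fewer expressing cells and less RNA per cell cannot be told apart.

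Immediate early genes are switched on within minutes of a stimulus, without new protein synthesis, and their messengers are short-lived. In serum-treated cells, growth factor receptors signal through RAS and ERK to ternary complex factors, which act with serum response factor (SRF) at CArG boxes, while calcium and cAMP signals act through CREB. FOS, FOSB and FOSL1 pair with JUN or JUNB to form the transcription factor AP-1. EGR1, EGR2 and EGR3 are zinc finger factors. IER2 and IER3 are nuclear and survival-related proteins induced by the same stimuli.

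RefSeq promoter windows (GRCh38.p14) were searched for 7 of the 10 genes. FOSL1 and IER3 had no window in the source, and EGR3 was left out of the search. A selection of stretches that carry SRF or CREB-type motifs is shown because serum is known to act through such sites. The TGACG matches of JUNB, IER2 and JUN are not printed. Capitals mark motif matches on either strand: CArG boxes, TGACG (the CREB half-site, also read as CGTCA) and, in EGR1, 1 EGR site (GCGNGGGCG). The 250 bases upstream of EGR1 (chr5:138465229-138465478, plus strand) hold 2 CArG boxes, and those upstream of the EGR2 start that has a CArG box (chr10:62816367-62816616, minus strand) hold 1.
EGR1: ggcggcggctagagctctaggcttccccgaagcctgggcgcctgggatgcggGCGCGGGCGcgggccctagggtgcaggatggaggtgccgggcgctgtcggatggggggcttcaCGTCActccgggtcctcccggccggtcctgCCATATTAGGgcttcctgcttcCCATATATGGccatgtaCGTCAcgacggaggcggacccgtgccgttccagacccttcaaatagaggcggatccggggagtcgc
EGR2: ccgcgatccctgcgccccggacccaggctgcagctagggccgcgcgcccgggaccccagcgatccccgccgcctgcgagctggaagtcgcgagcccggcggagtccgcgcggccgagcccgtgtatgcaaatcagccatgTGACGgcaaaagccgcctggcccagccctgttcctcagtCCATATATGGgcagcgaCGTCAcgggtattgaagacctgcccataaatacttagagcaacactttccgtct

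For FOS and FOSB the 30 bases around the TGACG match are shown, and for JUN those around TGACATCA, the site through which JUN is known to act on its own promoter. They lie at chr14:75278751-75278780 (plus), chr19:45467923-45467952 (plus) and chr1:58784097-58784126 (minus).
FOS: gtggttgagcccgTGACGtttacactcatt
FOSB: agcaaggggcgggTGACGtaagcagggggg
JUN: aaggccttggggTGACATCAtgggctattt

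All 7 genes searched had a TGACG match in at least 1 window, against 21.2% of all 35116 promoter windows in the table. A CArG box was found for 2 of these genes, EGR1 and EGR2, against 1.16% of all windows. The 7 genes had 9 windows and are counted per gene, while the shares are per window, so these are not like for like. TGACATCA stood in 2.37%, GCGNGGGCG in 8.41%, and TATAAA in 10.7% of windows. FOS, FOSB and JUNB had a TATAAA match between bases -33 and -25 from the start. The AP-1 site TGANTCA was in no window of the 7 genes searched and in 6.57% of all. No motif overlapped another in the printed stretches. These matches describe letters in a window of 250 bases and say nothing of sites further away.

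Library totals of the 12 libraries ran from 33101540 to 43700547 counts. Levels are given as CPM, the usual depth-scaled count, with library totals scaled by TMM, and 3 counts correspond to at most 0.0978 CPM. MCOLN3 had 9.31 to 18.4 CPM in the vector libraries. With the TRPML3 plasmid its level was 6211, 4929 and 39972 CPM in fed replicates 1, 2 and 3, and 41362, 58223 and 16896 CPM in the starved ones. Among genes known for this line, NEFM had at least 91.9 CPM and VIM at least 182 CPM in every library, and PAX2 went down to 0.839 CPM. The defining leukocyte gene PTPRC and the endothelial gene CDH5 did not exceed 0.0979 and 0.183 CPM, and the summed level of the 4 leukocyte genes stayed at or below 1.74 CPM and that of the 3 endothelial genes at or below 0.494 CPM. Of 4 fibroblast genes, COL3A1 and LUM were above 1 CPM in every library, and the 4 summed to 21.3 to 46.0 CPM. The labels give no batch or date. In replicate 3, MCOLN3 in TRPML3 cells was higher in the fed than in the starved library, opposite to replicates 1 and 2. FOSB, JUN, EGR2 and IER3 also had an order in replicate 3 opposite to that in replicates 1 and 2, with both plasmids. FOS, FOSL1, JUNB, EGR1, EGR3 and IER2 did not show this reversal with both plasmids. The share of all tested genes with such a reversal was not counted, so it is a description. In vector cells MCOLN3 was higher in the fed than in the starved library in every replicate number, also in replicate 3 (18.4 against 14.4 CPM). JUN in fed replicate 3 (198 CPM with vector, 275 with TRPML3) was below its starved libraries of replicates 1 and 2 (384 to 423 CPM). Whether the fed and starved labels of replicate 3 are exchanged in the deposit was not tested. The labels are used as given, and each replicate 3 value and each average over all 12 libraries depends on them. The average starvation results are given with and without replicate 3, and those within plasmids in part. The share of counts from the mitochondrial genome was 4.83% to 5.70% in the 4 replicate 3 libraries, 2.81% to 4.40% in replicate 1 and 1.05% to 2.52% in replicate 2, and the part of this difference in the results was not tested.

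Per kilobase of annotated exon (GENCODE 29), JUN was the most abundant of the 10, with a median of 128 CPM per kb over the 12 libraries (range 56.0 to 236). EGR1 followed with 92.5 (12.6 to 149), then IER2 with 17.6 (7.64 to 25.3) and FOS with 9.53 (1.63 to 15.6). FOSB had 5.76, JUNB 5.19 and IER3 4.65 CPM per kb, and their ranges overlapped. EGR2, EGR3 and FOSL1 were lowest at 0.955, 0.518 and 0.480. Each gene's range overlapped that of the next in this order, except IER3 (2.36 to 9.37), all of whose values were above those of EGR2 (0.132 to 1.74).

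**Figure D1:**
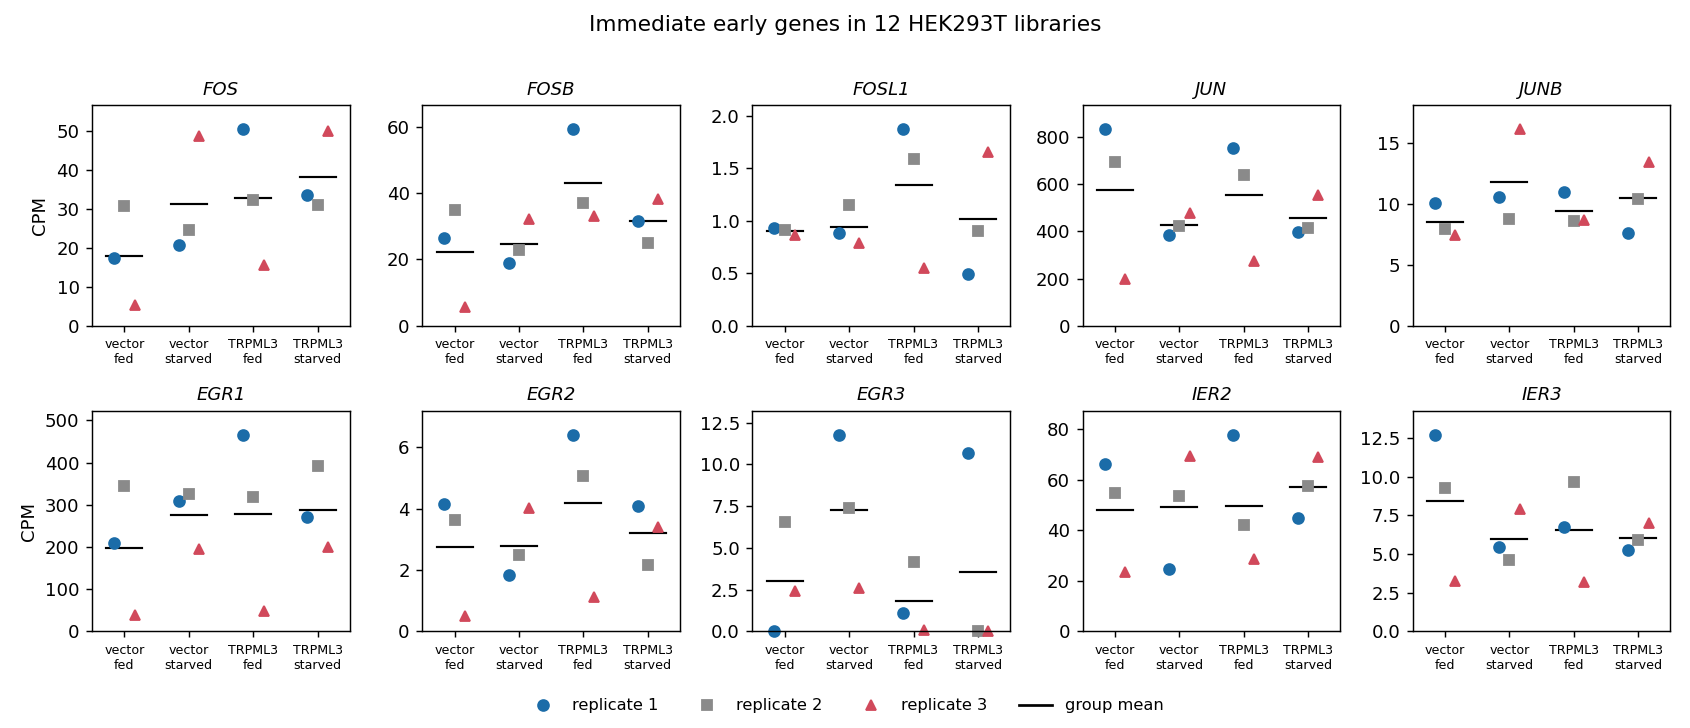
Level of each gene in CPM (vertical axis, from 0, scaled per gene) in the 4 groups, with 1 point per library and a line at the group mean of 3 libraries. In the fed groups the triangle of replicate 3 is the lowest point for FOS, FOSB, FOSL1, JUN, EGR1, EGR2, IER2 and IER3.

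FOS (ENSG00000170345, chr14:75278774-75282230 in GRCh38), the founding AP-1 subunit, had 17.3, 30.7 and 5.28 CPM in vector fed replicates 1, 2 and 3, and 50.4, 32.3 and 15.5 in TRPML3 fed. In starved cells it had 20.6, 24.7 and 48.7 CPM with vector and 33.5, 31.0 and 49.9 with TRPML3. The lowest libraries of the 12 were thus both fed replicate 3 libraries, while both starved replicate 3 libraries stood above the other starved libraries.

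FOSB (ENSG00000125740, chr19:45467995-45475179), which forms AP-1 like FOS, had 26.5, 34.8 and 5.68 CPM in vector fed and 59.3, 36.9 and 33.1 in TRPML3 fed. It had 19.0, 22.9 and 32.3 CPM in vector starved and 31.7, 24.9 and 38.4 in TRPML3 starved replicates 1, 2 and 3. Vector fed replicate 3 was the lowest by far, but TRPML3 fed replicate 3 was not among the low libraries. The FOSB locus lies wholly opposite ERCC1, a DNA repair gene, and the use of strand in counting is not given in the sources used here. ERCC1 itself had 33.8 CPM in vector fed replicate 3, above the 18.2 to 27.7 CPM of fed replicates 1 and 2.

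FOSL1 (ENSG00000175592), which encodes the FOS-related subunit FRA-1, rested on 17 to 78 counts per library. With vector it had 0.933, 0.914 and 0.861 CPM when fed and 0.882, 1.15 and 0.788 CPM when starved. With TRPML3 it had 1.87, 1.59 and 0.554 CPM when fed and 0.496, 0.898 and 1.65 CPM when starved. Its vector libraries were close together, and its TRPML3 libraries spread 3.38-fold when fed and 3.32-fold when starved.

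JUN (ENSG00000177606, chr1:58780788-58784327), the main partner of FOS proteins, had 835, 694 and 198 CPM in vector fed and 753, 640 and 275 in TRPML3 fed replicates. In starved cells it had 384, 423 and 480 CPM with vector and 399, 413 and 557 with TRPML3. In replicates 1 and 2 every starved library was below every fed library, while in replicate 3 both starved libraries were above both fed ones. The share of all tested genes ordered like this was not counted.

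JUNB (ENSG00000171223, chr19:12791496-12793315), a JUN relative that often restrains JUN, varied least of the 10, with 2.18-fold between its lowest and highest library. With vector it had 10.1, 7.97 and 7.43 CPM when fed and 10.6, 8.77 and 16.2 CPM when starved. With TRPML3 it had 11.0, 8.65 and 8.67 CPM when fed and 7.65, 10.4 and 13.5 CPM when starved. Its highest values were both starved replicate 3 libraries. The gene lies wholly opposite HOOK2, which had a median of 1.43 CPM.

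EGR1 (ENSG00000120738, chr5:138465490-138469315), the zinc finger factor with 2 CArG boxes in the window above, had 210, 344 and 39.4 CPM in vector fed and 466, 318 and 49.1 in TRPML3 fed. It had 309, 326 and 196 CPM in vector starved and 271, 393 and 199 in TRPML3 starved. The fed replicate 3 libraries were the lowest of the 12. In vector cells, the mean of fed replicates 1 and 2 was 7.03 times that of fed replicate 3, and in TRPML3 cells 7.98 times. Within the starved groups replicate 3 was also lowest.

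EGR2 (ENSG00000122877, chr10:62811996-62919900), known for its role in myelination, had 4.15, 3.63 and 0.488 CPM in vector fed and 6.41, 5.05 and 1.11 in TRPML3 fed. In starved cells it had 1.84, 2.49 and 4.03 CPM with vector and 4.09, 2.16 and 3.42 with TRPML3. The fed replicate 3 libraries were again the 2 lowest, with 17 counts in vector and 34 in TRPML3 cells. The ratio of fed replicates 1 and 2 to fed replicate 3 was 7.97 with vector and 5.17 with TRPML3.

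EGR3 (ENSG00000179388) did not follow this pattern. It was listed at 0 counts in vector fed replicate 1 and in TRPML3 starved replicates 2 and 3, and at 3 counts in TRPML3 fed replicate 3, but reached 11.8 CPM (481 counts) in vector starved and 10.7 CPM (366 counts) in TRPML3 starved replicate 1. Whether these zeros are failed estimates of the counting step was not tested. EGR3 also overlaps a transcript on the other strand, so its values are uncertain.

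IER2 (ENSG00000160888, chr19:13150415-13154908), a nuclear protein whose locus also overlaps a transcript on the other strand that was not analysed here, had 66.2, 54.8 and 23.5 CPM in vector fed and 77.8, 42.0 and 28.6 in TRPML3 fed. It had 24.8, 53.5 and 69.6 CPM in vector starved and 44.7, 57.6 and 69.1 in TRPML3 starved. IER3 (ENSG00000137331, chr6:30743199-30744554), a regulator of cell survival, had 12.7, 9.25 and 3.24 CPM in vector fed and 6.72, 9.66 and 3.20 in TRPML3 fed. In starved cells IER3 had 5.44, 4.63 and 7.88 CPM with vector and 5.26, 5.90 and 7.01 with TRPML3. For both genes fed replicate 3 was the lowest fed library with either plasmid. IER3 overlaps IER3-AS1 on the other strand, whose level stayed at or below 0.824 CPM.

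Vector fed replicate 3 was the lowest of the 12 libraries for 7 of the 10 genes, where it was the lowest for 11.1% of all tested genes. Both fed replicate 3 libraries were the 2 lowest for 5 genes (FOS, JUN, EGR1, EGR2 and IER3), against 5.35% of all tested genes. With both plasmids, fed replicate 3 lay below fed replicates 1 and 2 for 8 genes, against 23.0% of all. TRPML3 fed replicate 1 was the highest library for 6 genes, where it was the highest for 9.26% of all tested genes.

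**Figure D2:**
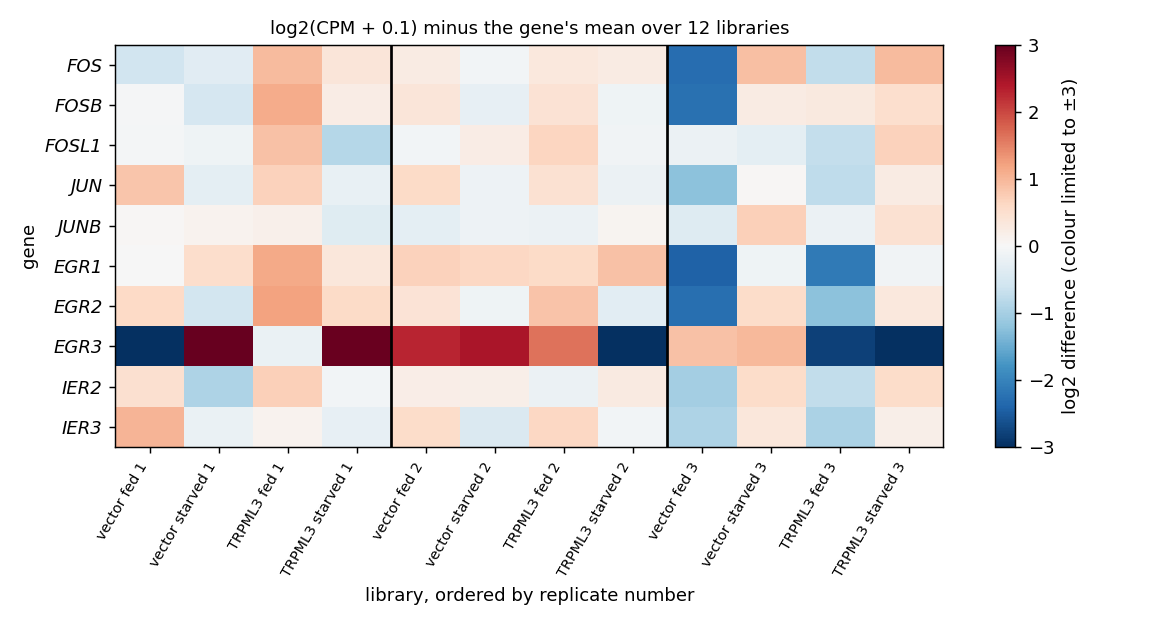
Colour shows log2(CPM + 0.1) minus the gene's mean over the 12 libraries, for 10 genes (rows) and 12 libraries (columns, grouped by replicate number). The columns of vector fed 3 and TRPML3 fed 3 are blue for FOS, JUN, EGR1, EGR2, IER2 and IER3, and the EGR3 row, with 3 libraries at 0, varies apart from the rest.

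Over the 12 libraries, the 45 pairs of genes had a median Pearson r of 0.52 in log2 CPM (range -0.34 to 0.91). The closest pairs were JUN with IER3 (0.91), JUN with EGR2 (0.90) and FOS with FOSB (0.87), and EGR3 with JUNB was the lowest (-0.34). Leaving out EGR3 and FOSL1, the median over 28 pairs was 0.67. The points share groups, replicate numbers and scaling, so these values are descriptions.

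To ask how the genes respond to serum withdrawal, starved libraries were compared with fed ones in edgeR's quasi-likelihood test on all tested genes, with Benjamini-Hochberg adjustment. Averaged over both plasmids, 0 of the 10 genes passed an adjusted p of 0.05, as did 0% of all tested genes. At an unadjusted p under 0.05 there were also 0 of 10, against 9.45% of all. The DESeq2 Wald test, run as an alternative, called 0 of the 10 and 1.52% of the genes it gave an adjusted p. The median log2 fold change of the 10 genes was -0.01, and that of all tested genes was 0.01. FOS had a log2 fold change of 0.52 ± 0.43 (SE, adjusted p = 0.777, edgeR), EGR1 0.27 ± 0.55, JUNB 0.32 ± 0.22 and EGR3 1.13 ± 1.43. JUN had -0.35 ± 0.33, IER3 -0.30 ± 0.36, EGR2 -0.18 ± 0.53, FOSL1 -0.17 ± 0.36, FOSB -0.15 ± 0.37 and IER2 0.12 ± 0.35.

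Within plasmids the result was alike with replicate 3 included. In vector cells 0 of 10 genes passed (0.00555% of all tested genes did), and 0 of 10 had an unadjusted p under 0.05 (4.44% of all). FOS had a log2 fold change of 0.82 ± 0.61 (31.3 ± 15.2 against 17.8 ± 12.7 CPM, SD, n = 3), and JUN had -0.42 ± 0.47 (429 ± 48.5 against 576 ± 334 CPM). In TRPML3 cells 0 of 10 passed (0% of all), with 0 of 10 at an unadjusted p under 0.05 (5.71% of all), and JUN had -0.28 ± 0.47 (457 ± 87.1 against 556 ± 250 CPM). The starved and fed ranges did not overlap for 0 of the 10 genes with either plasmid, against 9.93% of all tested genes with vector and 11.2% with TRPML3. Without replicate 3, set aside with its values known, the median of the 10 genes was -0.30 with vector and -0.45 with TRPML3. JUN then had -0.91 and -0.77 (adjusted p = 0.138 and 0.109, edgeR), and EGR1 had 0.21 and -0.23. The unadjusted p of JUN was under 0.05 with both plasmids, and 0 of 10 genes passed the adjusted threshold.

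The average combined replicate numbers whose values differed in size and, for several genes, in sign. Starved and fed libraries of the same replicate number were compared over both plasmids, in a fit with 1 vector and 1 TRPML3 library per serum state and number and 5 residual degrees of freedom. This comparison, with its test of a difference between numbers, was chosen with earlier results of these data known. In number 3, 9 of 10 genes were higher in starved cells (52.3% of all tested genes were), with a median log2 fold change of 1.17 against 0.03 for all genes. In numbers 1 and 2 the medians were -0.77 and -0.42, against -0.02 and -0.02 for all genes. There 1 and 3 of the 10 genes were higher, against 8812 and 8728 of all 18030 tested genes.

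FOS had the largest effect in number 3, a log2 fold change of 2.42 ± 0.47 (SE), against -0.23 ± 0.44 in number 1 and -0.21 ± 0.44 in number 2. EGR2 had 2.33 ± 0.45 in number 3 and -0.87 and -0.85 in numbers 1 and 2. EGR1 had 2.17 ± 0.32 in number 3, and -0.17 and 0.10 in the others. JUN was the most precise, with 1.14 ± 0.17 in number 3, -1.02 ± 0.17 in number 1 and -0.67 ± 0.17 in number 2.

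IER2 had 1.42 ± 0.28 in number 3, -1.07 ± 0.28 in number 1 and 0.18 ± 0.28 in number 2. IER3 had 1.21 ± 0.32, -0.84 ± 0.32 and -0.84 ± 0.32 in numbers 3, 1 and 2. FOSB (1.13 ± 0.59), JUNB (0.88 ± 0.26) and FOSL1 (0.72 ± 0.59) were also above 0 in number 3. EGR3 had -0.11 ± 2.33. At an unadjusted p under 0.05, 7 of the 10 genes were higher in number 3, against 7.83% of all tested genes. None passed the adjusted threshold within number 3 (JUN and EGR1 had an adjusted p of 0.0698, edgeR).

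The test that the starvation effect is equal in the 3 numbers, which treats the numbers alike, was passed by 0 of the 10 genes at an adjusted p under 0.05 (0.122% of all tested genes passed). JUN came nearest, with an edgeR adjusted p of 0.0501, followed by IER2 (0.0771), EGR2 (0.0843) and EGR1 (0.0877). At an unadjusted p under 0.05 there were 6 of 10 (FOS, JUN, EGR1, EGR2, IER2 and IER3), against 17.5% of all tested genes. JUN passed in edgeR with DESeq2 size factors (adjusted p = 0.0477, with 0.327% of all genes), with library size only (0.0454, with 0.128%) and with the filter of 10 counts in every library (0.0409, with 1.04%). The DESeq2 likelihood ratio test, chosen after the data were seen, called these 6 genes and 12.8% of all tested genes.

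**Figure D3:**
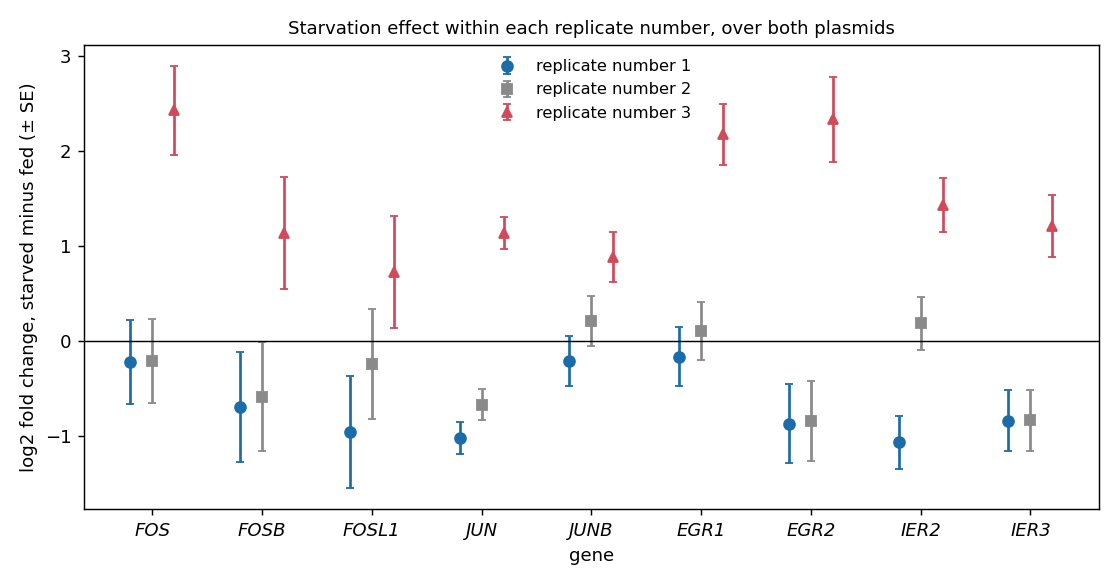
Log2 fold change of starved against fed libraries (vertical axis, ± SE) within replicate numbers 1, 2 and 3, each from 2 starved and 2 fed libraries, for 9 genes. All 9 triangles of number 3 are above 0, from 0.72 for FOSL1 to 2.42 for FOS, and EGR3 is left out because its SE in number 3 is 2.33.

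The ratios within each plasmid were as follows. In replicate 3, starved over fed was 9.23 for FOS with vector and 3.23 with TRPML3, 4.98 and 4.05 for EGR1, 8.26 and 3.08 for EGR2, and 2.42 and 2.03 for JUN. In replicate 1 the ratio for JUN was 0.460 with vector and 0.530 with TRPML3, and in replicate 2 it was 0.609 and 0.646. With vector 9 of 10 genes were higher in starved replicate 3, where 51.7% of all tested genes were, and with TRPML3 also 9, where 51.5% were. In replicate 1, 4 of 10 genes were higher in starved cells with vector and 1 with TRPML3 (47.8% and 49.6% of all tested genes were). In replicate 2 there were 3 with each plasmid (48.5% of all with each). EGR1 was among them with vector in replicate 1 (1.47) and with TRPML3 in replicate 2 (1.24), FOS with vector in replicate 1 (1.19) and IER2 with TRPML3 in replicate 2 (1.37). MCOLN3 moved between the same libraries, since TRPML3 fed replicate 3 had 39972 CPM and the other TRPML3 fed libraries 6211 and 4929. In the vector libraries MCOLN3 was at 18.4 CPM or below.

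Without replicate 3 in all 4 groups, JUN fell on average starvation, by 0.84 ± 0.10 on the log2 scale (adjusted p = 0.0259, edgeR). It was lower in every starved than in every fed library of the 8. How many of all tested genes separate in this way was not counted, so the separation is a description. With all 12 libraries JUN had -0.35 ± 0.33 (adjusted p = 0.812, edgeR). Replicate 3 was set aside with its values known, so the p-values without it, here and below, are not independent of that choice. JUN was the only one of the 10 to pass, where 1.94% of all tested genes passed as lower. Of the 10, 9 had a log2 fold change below 0 (9292 of all 18052 genes in this fit had), with a median of -0.50 against -0.02 for all genes. At an unadjusted p under 0.05, 4 were lower (JUN, EGR2, FOSB and IER3), against 11.1% of all. EGR2 had -0.85 ± 0.27 (adjusted p = 0.129), IER3 -0.83 ± 0.21 (0.0831) and FOSB -0.65 ± 0.22 (0.153) in edgeR. FOSL1 had -0.58 ± 0.27, IER2 -0.42 ± 0.32 and FOS -0.21 ± 0.25. JUNB and EGR1 lay at -0.0016 ± 0.21 and -0.01 ± 0.23, and EGR3 at 1.29 ± 1.75.

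**Figure D4:**
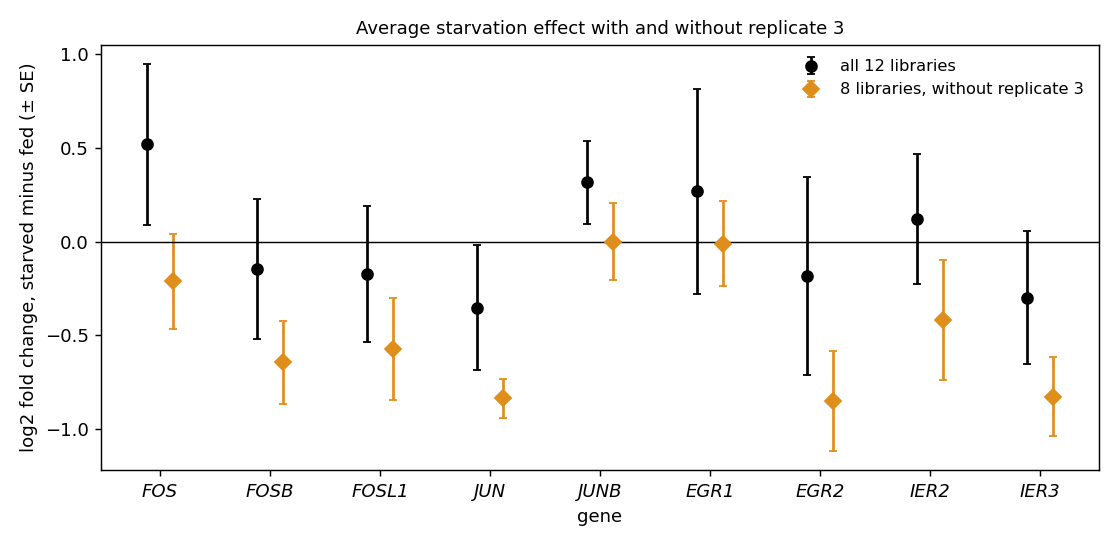
Average log2 fold change of starved against fed libraries (vertical axis, ± SE) in all 12 libraries (circles) and in the 8 libraries without replicate 3 (diamonds), for 9 genes without EGR3. JUN goes from -0.35 to -0.84, and FOS from 0.52 to -0.21.

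To ask whether TRPML3 itself moves these genes, TRPML3 libraries were compared with vector libraries in each serum state. Fed cells gave 0 of the 10 genes past the adjusted threshold (0.0111% of all tested genes were), and 0 of 10 had an unadjusted p under 0.05 (2.21% of all). The highest values were FOSB, with a log2 fold change of 0.95 ± 0.53 (43.1 ± 14.2 against 22.3 ± 15.0 CPM, SD, n = 3), and FOS, with 0.88 ± 0.61 (32.7 ± 17.5 against 17.8 ± 12.7 CPM). Both were higher with TRPML3 than in the vector library of the same number in 3 of 3 fed pairs. In replicate 2 the values were close (FOS 32.3 against 30.7 CPM, FOSB 36.9 against 34.8 CPM). The share of all tested genes with such an order was not counted, so the order is a description. EGR1 had 0.49 ± 0.78 and JUN -0.05 ± 0.47, and the median of the 10 was 0.32, against -0.01 for all genes. Without TRPML3 fed replicate 1 the median of the 10 was -0.04, and without TRPML3 fed replicate 3 it was 0.63. FOS ranged from 0.40 (without replicate 1) to 1.57 (without replicate 2), and FOSB from 0.49 (without vector fed replicate 3) to 1.54 (without replicate 2), when libraries were left out. DESeq2's Wald test called 0 of the 10 in fed cells (0.167% of all) and 0 in starved cells (0.239% of all).

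In starved cells 0 of 10 passed (0.00555% of all), with 0 of 10 at an unadjusted p under 0.05 (2.2% of all). FOSB had 0.36 ± 0.53, FOS 0.28 ± 0.61, JUN 0.09 ± 0.47 and EGR1 0.06 ± 0.78. Averaged over both serum states the median of the 10 genes was 0.20 (-0.05 without TRPML3 fed replicate 1) and 0 of 10 passed (0.0111% of all), with 0 of 10 at an unadjusted p under 0.05 (2.62% of all). FOSB had 0.65 ± 0.38 and FOS 0.58 ± 0.43 in that average. The test of whether starvation acts differently with TRPML3 than with vector (the interaction) was passed by 0 of 10 (0% of all), with 0 of 10 at an unadjusted p under 0.05 (2.07% of all). These comparisons share their control libraries.

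The other genes of the pathway were read from 3 lists. Of 35 other immediate early genes, 33 were tested. On average starvation 0 passed, 8 were lower and 2 higher at an unadjusted p under 0.05 (4.79% and 4.66% of all tested genes), and the median log2 fold change was -0.32. The 3 with the smallest p were NR4A3, an orphan nuclear receptor (-1.59 ± 0.41, 34.4 and 41.2 CPM fed against 12.3 and 12.7 starved with vector and TRPML3), MYC, the growth regulator (0.55 ± 0.16), and KLF10, a TGF-beta-induced repressor (-0.85 ± 0.28). Their adjusted p was 0.349, 0.363 and 0.389 (edgeR). MYC had a value above 0 in every replicate number (0.50, 0.67 and 0.51).

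Without replicate 3, 6 of these 33 genes fell and 0 rose (adjusted p from 0.0248 to 0.0413, edgeR), where 1.94% of all tested genes fell and 2.54% rose: NR4A3 (-2.04), NR4A2 (-1.65), KLF4 (-1.32), RHOB (-1.30), ATF3 (-1.16) and DUSP1 (-1.13), named after their values were seen. The list's median was then -0.78, or -0.76 without CCN2, which had no count in at least 1 group. By replicate number its medians were -0.74, -0.72 and 0.51, of the same signs as the medians of the 10 genes above. Fed replicate 3 was the lowest fed library with both plasmids for 21 of 33, against 23.0% of all tested genes. DUSP1, a phosphatase of MAP kinases, had -1.24, -1.07 and 1.17 in numbers 1, 2 and 3 (adjusted p = 0.0501 for a difference between numbers, edgeR).

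Of the 14 AP-1 partners and EGR co-repressors, 13 were tested and 0 passed on average starvation. At an unadjusted p under 0.05, 3 were lower and 1 higher, against 4.79% and 4.66% of all tested genes. NAB2, which binds EGR1 and represses its activity, had -0.81 ± 0.16 (adjusted p = 0.342, edgeR), with 19.0 and 27.8 CPM in fed and 12.9 and 13.2 in starved cells with vector and TRPML3. Its value was below 0 in each replicate number (-0.59, -0.92 and -0.90). JDP2, a repressor of AP-1, had -2.68 ± 1.07. Its mean was 5.42 CPM fed against 0.171 starved with vector, and 6.44 against 4.96 with TRPML3. FOSL2, the FRA-2 subunit, had -0.84 ± 0.34. The medians by number were 0.05, -0.15 and -0.06.

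The 29 upstream regulators, from receptors and RAS to ERK, SRF and CREB, were all tested. On average starvation 0 passed and 0 had an unadjusted p under 0.05 (9.45% of all tested genes had), with a median of -0.10. The smallest p were those of HRAS (0.52 ± 0.24), IGF1R (-0.42 ± 0.21) and FGFR1 (-0.80 ± 0.42). SRF had -0.10 ± 0.24. Without replicate 3, ELK3, a ternary complex factor (-0.73), and the insulin receptor gene INSR (-0.67) fell (adjusted p = 0.0452 and 0.0444, edgeR), where 1.94% of all tested genes fell. Both were named after their values were seen. The medians by number were -0.05, -0.26 and 0.02.

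**Figure D5:**
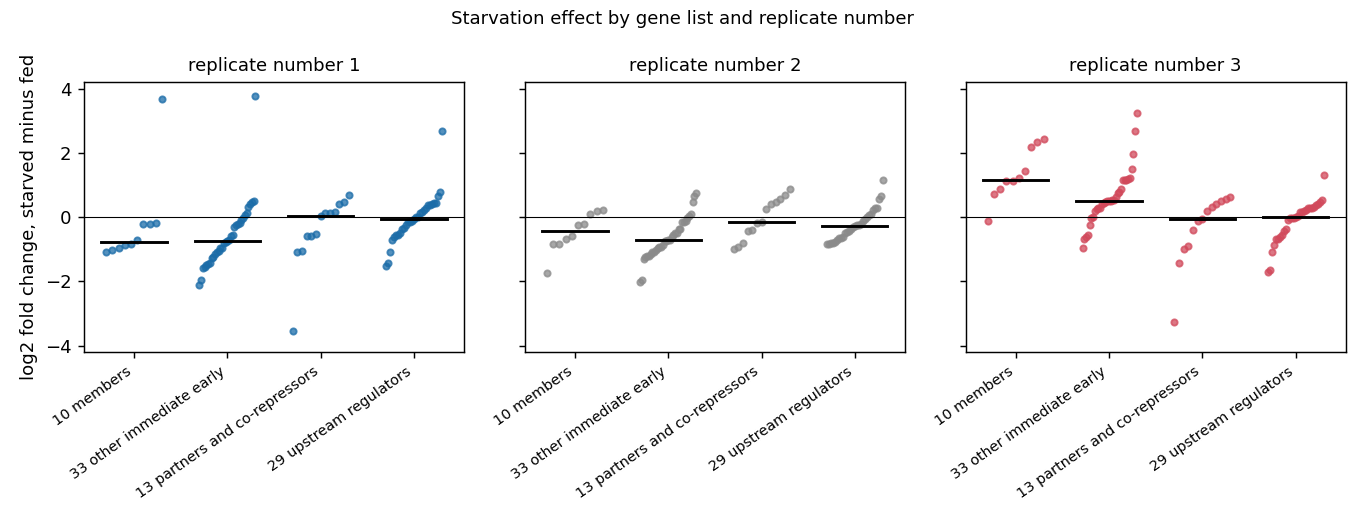
Log2 fold change of starved against fed libraries (vertical axis) for each gene of 4 lists, in replicate numbers 1, 2 and 3 (panels), with a bar at the list's median. The medians of the 10 members are -0.77, -0.42 and 1.17 and those of the 33 other immediate early genes -0.74, -0.72 and 0.51, while the other lists stay between -0.26 and 0.05. CCN2 lies outside the axis in number 3 (-8.75).

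The mean pattern of the 10 genes, taken as log2 CPM centred per gene, was lowest in vector fed replicate 3 (-1.19) and TRPML3 fed replicate 3 (-1.01) and highest in TRPML3 fed replicate 1 (0.70). Among all tested genes, the 8 most like it over the 12 libraries were LINC01977, SLC1A3, MAPRE2, GRK5, GSK3B, QPRT, LINC02228 and PITPNM1, with Pearson r from 0.89 to 0.93. LINC01977 and LINC02228 were listed at 0 in both fed replicate 3 libraries and were low throughout, with means of 0.39 and 0.21 CPM over the 12 libraries. SLC1A3, a glutamate transporter, had a mean of 23.5 CPM in the fed replicate 3 libraries and 55.4 in the other 10. The 4 with the lowest r were ARFIP1 (-0.92), KCTD3 (-0.90), LINC03072 (-0.90) and EEF1AKMT2 (-0.88). Among the 10 genes themselves, r with this mean ran from 0.27 for JUNB to 0.88 for EGR2. With Spearman's rho 3 of the 8 stayed among the 8 nearest, and without replicate 3 also 3.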

How the data were processed

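The authors deposited whole-number counts per gene and library, and a normalized signal for 23252 of the 41878 rows. Per the file values, the deposited signal is the count divided by 1 factor per library. FastQC, fastp, HISAT2, StringTie, DESeq2 and GRCh38 are named, without roles, per the submitters' processing notes. Strandedness of the counting, the annotation used and whether counts are estimates: not given in the sources used here. Groups and replicate numbers came from the titles.

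Counts were tested in R 4.3.3 with edgeR 4.0.16 (TMM, filterByExpr, robust quasi-likelihood fit of all 12 libraries, 8 residual degrees of freedom, Benjamini-Hochberg at 0.05), after a check on simulated data. DESeq2 1.42.0 and limma 3.58.1 (on log2 of the deposited signal + 1) served as alternatives. Standard errors came from the log2 fold change and its F. Log2 CPM for correlations used a prior count of 2. The starvation effect by replicate number used 1 coefficient per serum state and number, plus plasmid. Without a stated source for each culture, p-values measure the spread between these libraries.

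Members, lists and the comparison by replicate number were chosen with earlier results of these data known. Named by rule are the 10 members, MCOLN3, the 3 genes of each list with the smallest p on average starvation, and the 8 most and 4 least like genes. The deviations of same-numbered libraries from their group means were correlated between plasmids, with r from 0.11 to 0.33 in fed cells. In starved cells r was 0.095 to 0.32, and between serum states it was -0.076 to 0.0075. The 7 main comparisons used no pairing, and a fit with a replicate block served as an alternative. The comparison by replicate number matched starved to fed libraries by label only. No 2 libraries agreed within counting noise (chi-square per degree of freedom at least 140 over 66 pairs). Gene positions and exon lengths are from GENCODE 29, and promoters from RefSeq.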

Additional observations from a re-analysis of the deposited data

How the results depend on the processing

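Of the 7 comparisons, the number of the 10 genes past the adjusted threshold stayed at 0 under every alternative run, except that average starvation gave 0 to 1 over the 15 fits that leave out 1 library or 1 replicate number, with JUN passing without replicate 3. The count past the test of a difference between numbers was 1 with DESeq2 size factors (59 of all genes), 1 with library size only (23), 1 with at least 10 counts in every library (145) and 6 with the DESeq2 likelihood ratio test (2316), against 0 (22). This last test was chosen after seeing the data, and the planned DESeq2 Wald test of that difference was not run, since the difference has 2 degrees of freedom. With the replicate block, EGR2 on average starvation went to 0.10 (log2), and the pairing changed no call of the 10 genes.

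Some log2 fold changes turned sign with the scaling or scale. With library size only, EGR1 had -0.072 for starvation in TRPML3 cells and -0.046 for TRPML3 in starved cells, and JUN had -0.019 for TRPML3 in starved cells and -0.065 for average TRPML3. With limma, JUN had 0.085 for TRPML3 in fed cells, and on average starvation FOSB had 0.021 and EGR2 0.16. The cause was not tested.

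Over the 15 leave-out fits, average starvation ranged from -0.21 to 0.98 for FOS, -0.65 to 0.15 for FOSB, -0.58 to 0.18 for FOSL1, -0.84 to 0.051 for JUN and -0.0016 to 0.58 for JUNB. It ranged from -0.011 to 0.60 for EGR1, -0.85 to 0.26 for EGR2, -4.59 to 2.82 for EGR3, -0.42 to 0.75 for IER2 and -0.83 to 0.025 for IER3. Starvation in vector cells ranged from -0.071 to 1.64 for FOS, -0.53 to 0.69 for FOSB and -0.91 to 0.015 for JUN. In TRPML3 cells it ranged from -0.35 to 0.76 for FOS, -0.77 to 0.086 for JUN and -0.45 to 0.69 for EGR1. TRPML3 in fed cells ranged from -0.46 to 0.32 for JUN, -0.11 to 1.15 for EGR1, 0.40 to 1.57 for FOS and 0.49 to 1.54 for FOSB, and without vector fed replicate 2 FOS and FOSB each had an unadjusted p under 0.05 (edgeR, adjusted p = 1). In starved cells it ranged from -0.088 to 0.18 for JUN and -0.24 to 0.26 for EGR1, and on average from -0.19 to 0.20 for JUN and -0.027 to 0.60 for EGR1. Depth limits FOSL1 and EGR2, which had as few as 17 counts in a library.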

Other observations

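The same 3 lists were read for TRPML3 averaged over both serum states, where 2.62% of all tested genes had an unadjusted p under 0.05 in either direction. The median log2 fold change of all tested genes was -0.01. Of the 33 other immediate early genes tested, 22 had a log2 fold change above 0, with a median of 0.12, and 1 had an unadjusted p under 0.05 as higher. Of the 13 AP-1 partners and EGR co-repressors, 9 were above 0 (median 0.23, 1 at an unadjusted p under 0.05), and of the 29 upstream regulators 16 (median 0.02, 1 at an unadjusted p under 0.05). The edgeR adjusted p was 0.05 or above for every gene of the 3 lists.

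HOOK2, which lies opposite JUNB, had log2 fold changes for starvation of 1.10, 2.29 and 1.43 in replicate numbers 1, 2 and 3, where JUNB had -0.21, 0.21 and 0.88. ERCC1, opposite FOSB, had 0.22, 0.58 and -0.18, where FOSB had -0.70, -0.59 and 1.13.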
